A study of Homo sapiens with 18 samples.

Results

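Ion channels and ion pumps were examined as 1 set of genes in brain tumor cells held in a direct current electrical field (dcEF). The set was taken by gene name (KCN, CACN, SCN, TRPC, TRPM, TRPV, CLCN, LRRC8, PIEZO, ASIC, ATP1A, ATP1B and SLC9A families). A name had to own a protein_coding transcript and a mean of at least 1 TPM over the 9 samples of either cell line, so measured levels chose the members. TPM is a level scaled to transcript length and to the library's total, summed here over all transcripts of a name. Of 191 candidate names 88 passed, out of 32490 names in the table, and they covered 607 of its 145326 transcripts.

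RNA-SEQ had been performed on spheroidal aggregates of U87 mg, a glioblastoma cell line, and of DAOY, a cell line from a desmoplastic cerebellar medulloblastoma. Aggregates were embedded in a mix of medium and Matrigel within electrotaxis channels and held at 250 V/m for 0 h (the control), 2 h or 8 h, with 3 samples of each line and time and 18 in all. Each sample pooled the material of 3 channels, and per the study's methods the samples sequenced were those of best quality among the biological replicates prepared. No genotype differed within a line, and all groups shared the medium, serum and Matrigel. Each tumor type stood as 1 cell line, and channels kept without field for 2 h or 8 h were not analysed here, so field and time in the channel cannot be told apart. The libraries held 8341976 to 15610886 estimated counts each. Of the defining glial markers S100B and AQP4 were near 0 TPM in U87 mg and GFAP averaged 1.16 TPM, while VIM averaged 4606 TPM and CD44 2962 TPM. In DAOY the granule lineage markers NEUROD1 and BARHL1 were near 0 TPM, while ZIC1 averaged 11.9 TPM and PTCH1 8.65 TPM. These markers did not all follow the line. VIM and CD44 averaged 2221 and 1179 TPM in DAOY, and ZIC1 and PTCH1 6.90 and 2.59 TPM in U87 mg. Of other glial markers NES was higher in U87 mg (7.52 and 0.488 TPM) but SOX2 in DAOY (0.0297 and 4.81 TPM). Of other granule lineage markers GLI1 was higher in U87 mg (3.56 and 0.210 TPM) and PAX6 alike (25.0 and 23.0 TPM). In bulk RNA, fewer cells that make a transcript and less RNA per cell cannot be told apart.

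Ion pumps and channels together set the voltage across a cell's membrane. The Na,K-ATPase, built from a catalytic alpha and a glycosylated beta subunit, exports sodium and imports potassium. Potassium channels then let potassium leak out, while calcium, sodium and TRP channels admit cations, and LRRC8 and CLC proteins carry chloride and other anions. Sodium-proton exchangers of the SLC9A family set the pH of the cytosol or of organelles, and several of these families are studied as sensors or effectors of cell migration in electrical fields.

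The sequences before a RefSeq start of 3 members are shown because these members are named in results below. KCNJ2 and SLC9A8 passed the test in DAOY at 8 h, and KCNK1 was at 0 counts in all U87 mg samples. RefSeq (GRCh38.p14) gave a promoter window for 68 of the 88 members by symbol, and the 250 bases before the first listed start were used. Capitals mark matches on either strand to 5 motifs, and no match overlapped another. For AP-1, the dimer of Fos and Jun proteins, the letters searched were TGANTCA. For TEAD, the partner of the YAP protein, they were GGAATG. For the core of the cyclic AMP response element, or CRE, they were TGACGT. For the TATA box of core promoters they were TATAAA, and for the E-box of Myc and related proteins CACGTG.
KCNJ2 (chr17:70169282-70169531, plus strand): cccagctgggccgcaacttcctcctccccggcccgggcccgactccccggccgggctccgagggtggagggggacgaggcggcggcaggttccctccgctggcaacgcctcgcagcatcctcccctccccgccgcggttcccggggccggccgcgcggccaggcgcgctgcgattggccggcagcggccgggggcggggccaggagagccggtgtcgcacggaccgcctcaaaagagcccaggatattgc
SLC9A8 (chr20:49812578-49812827, plus strand): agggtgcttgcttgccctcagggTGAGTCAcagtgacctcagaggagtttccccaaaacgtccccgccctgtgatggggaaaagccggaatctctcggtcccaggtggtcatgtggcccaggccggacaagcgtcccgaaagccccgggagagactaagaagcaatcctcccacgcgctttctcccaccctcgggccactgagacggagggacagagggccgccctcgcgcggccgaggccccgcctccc
KCNK1 (chr1:233613856-233614105, plus strand): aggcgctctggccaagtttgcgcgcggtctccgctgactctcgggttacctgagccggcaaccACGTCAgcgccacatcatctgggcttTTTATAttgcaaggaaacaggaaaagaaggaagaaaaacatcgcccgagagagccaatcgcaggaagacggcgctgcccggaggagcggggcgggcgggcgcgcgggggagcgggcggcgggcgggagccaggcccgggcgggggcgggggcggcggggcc
The KCNJ2 window held none of these letters but 32 CG pairs, against a median of 11 over 27305 promoters of the same length. SLC9A8 held 18 CG pairs and 1 match to TGANTCA, a string that 6.60% of all promoters held. KCNK1 held 30 CG pairs, 1 match to TGACGT (7.42% of all promoters) and 1 to TATAAA (11.1%). GGAATG stood in 11.9% of all promoters and CACGTG in 6.49%. The windows ended within 3 bases of the start of the most abundant transcript in DAOY for KCNJ2, 53 for SLC9A8 and 102 for KCNK1, whereas the KCNJ15 window lay 15810 bases from such a start and is not shown. Members that passed the 1 TPM threshold in both lines had a median of 25 CG pairs in this window (44 with a window), and members that passed only in DAOY had 8 (21 with a window). By the gene spans given below, the KCNJ2 window lies inside the gene and the SLC9A8 window runs past its gene's start. These matches and counts describe letters only, and no result below depends on them.

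Levels were led by the Na,K-ATPase. Its subunits made up 64.6 to 76.5% of the summed TPM of the members in the U87 mg samples and 60.7 to 72.3% in the DAOY samples. ATP1B3, a beta subunit, had the highest level in both lines, 1463 ± 207 TPM in U87 mg and 1125 ± 288 TPM in DAOY (SD over 9 samples of all 3 times). ATP1B1, the other common beta subunit, reached 332 ± 33.2 TPM in DAOY against 45.5 ± 10.1 TPM in U87 mg. The glial beta subunit ATP1B2 passed only in DAOY, at 4.63 TPM.

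**Figure D1:**
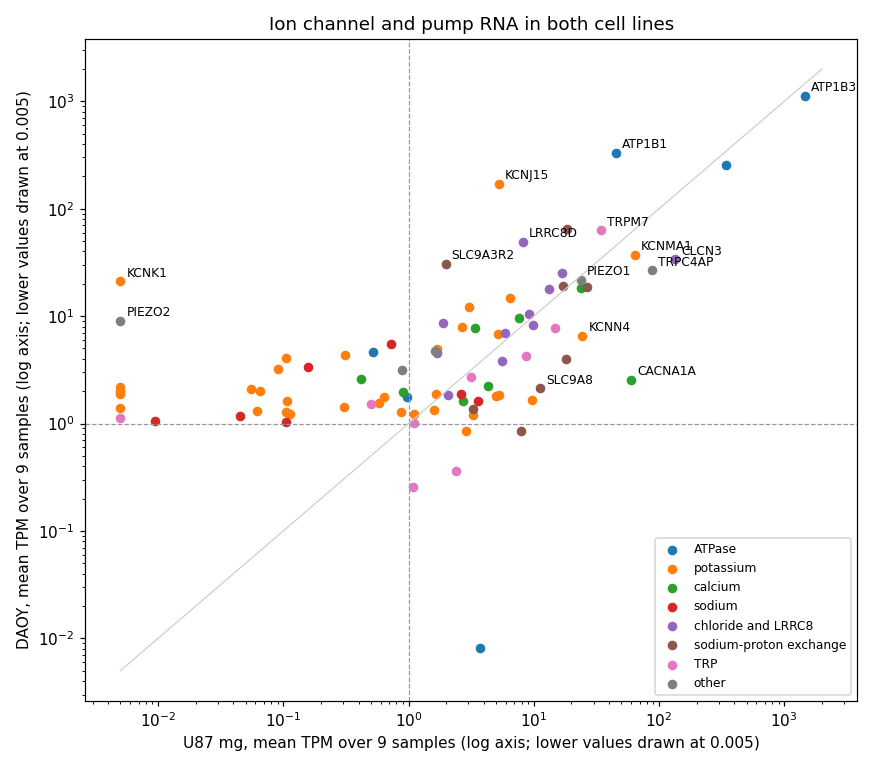
Mean TPM of the 88 members over 9 samples in U87 mg (x axis) and DAOY (y axis), both on log axes, with 1 point per gene coloured by family and values under 0.005 drawn at 0.005. Dashed lines mark the 1 TPM threshold: 52 members passed it in both lines, 31 in DAOY only and 5 in U87 mg only. The shares of all genes that passed it in each line are not given here, so these counts cannot be set against genes at large. More genes held enough counts to be tested in DAOY (15396) than in U87 mg (14106).

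Potassium channels formed the largest group, with 11 voltage-gated members, 9 auxiliary subunits, 5 members each of the tandem-pore and of the calcium- or sodium-activated families and 4 inward rectifiers. Among the inward rectifiers, which pass potassium inward more easily than outward, KCNJ15 averaged 171 ± 27.0 TPM in DAOY and 5.28 ± 1.48 TPM in U87 mg. KCNJ2 stood near 1 to 3 TPM in both lines, and KCNJ14 (4.38 TPM) and KCNJ16 (4.09 TPM) passed only in DAOY. Of 5 members of the tandem-pore leak family 4 passed only in DAOY, as did 31 of all 88 members. KCNK1 averaged 21.1 ± 5.58 TPM in DAOY and was at 0 counts in all 9 U87 mg samples, as were KCNK5, KCNH5 and KCNIP1, where 3 counts correspond to 0.192 to 0.360 CPM. KCNK6 was the tandem-pore member present in both lines, at 1.70 TPM in U87 mg and 4.97 TPM in DAOY. All 5 calcium- or sodium-activated members passed in both lines. They were led by KCNMA1, the large-conductance BK channel, at 63.8 ± 8.95 TPM in U87 mg and 37.2 ± 7 TPM in DAOY. KCNN4, the intermediate-conductance channel, averaged 24.4 TPM in U87 mg and 6.55 TPM in DAOY, and the small-conductance channel KCNN3 averaged 6.46 and 14.7 TPM. Voltage-gated members were low throughout, with the silent subunits KCNS3 (9.64 TPM in U87 mg) and KCNG1 (7.91 TPM in DAOY) highest, followed by KCNC4 (5.25 TPM in U87 mg). Of the auxiliary subunits KCNAB2 averaged 12.1 TPM in DAOY, KCNE4, which dampens voltage-gated potassium channels, 6.78 TPM in DAOY and 5.18 TPM in U87 mg, and KCNIP4 3.28 TPM in U87 mg.

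Of the 10 candidate calcium channel pore genes 2 passed. CACNA1A, the P/Q-type pore known from nerve terminals, averaged 60.0 ± 7.12 TPM in U87 mg and 2.55 ± 1.23 TPM in DAOY, but 42.7% of the U87 mg value came from protein_coding transcripts. The L-type pore CACNA1C averaged 4.35 and 2.22 TPM, and the other 8 candidate pore genes stayed under 1 TPM in both lines. The subunit CACNA2D1, which brings pores to the surface, averaged 23.8 and 18.2 TPM, CACNB3 7.69 and 9.68 TPM, and CACNA2D3 3.38 and 7.73 TPM. Sodium channel members were low. SCN2A, SCN8A and SCN1A had the highest means of the pore subunits, 3.58, 2.61 and 0.158 TPM in U87 mg and 1.62, 1.89 and 3.34 TPM in DAOY. The beta subunits SCN3B (1.19 TPM) and SCN4B (1.06 TPM) passed only in DAOY. The SCN1A mean rested on 1 library, DAOY 8 h replicate 1, with 29.9 TPM from 4.04 estimated counts, against 0 TPM in the other 2 DAOY 8 h libraries. Of that level 29.5 TPM was credited to 1 processed_transcript.

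Among the CLC and LRRC8 members the highest level belonged to CLCN3 in U87 mg and to LRRC8D in DAOY. CLCN3, a chloride-proton exchanger of endosomes, averaged 135 ± 21.9 TPM in U87 mg and 33.8 ± 6.51 TPM in DAOY. The lysosomal CLCN7 averaged 13.2 and 18.03 TPM and CLCN6 5.93 and 7.03 TPM. All 5 LRRC8 genes, whose products assemble into the volume-regulated anion channel, passed in both lines. LRRC8A, the subunit that every such channel needs, averaged 16.7 ± 3.28 TPM in U87 mg and 25.0 ± 5.10 TPM in DAOY. LRRC8D averaged 8.17 ± 1.80 TPM in U87 mg and 48.9 ± 4.78 TPM in DAOY, which made it the highest LRRC8 gene of DAOY and the fourth of 5 in U87 mg, where LRRC8E (9.79 TPM) and LRRC8C (9.09 TPM) were within 1 SD of it. LRRC8B was lowest in U87 mg at 1.88 TPM and averaged 8.60 TPM in DAOY. LRRC8B, LRRC8C and LRRC8D lie next to each other on chromosome 1, in this order and on the plus strand, with gaps of 35208 and 51111 bases, and all 3 were tested apart.

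**Figure D2:**
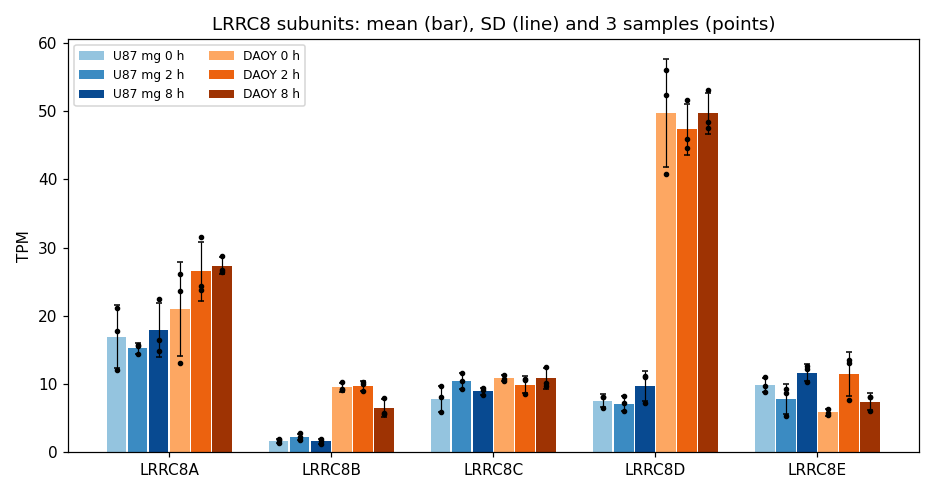
TPM of the 5 LRRC8 genes in each group of 3 samples (bar, mean; line, SD; points, samples), with U87 mg in blue and DAOY in orange and darker shades for later times. LRRC8D stands between 40.8 and 56.0 TPM in the DAOY samples and between 6.003 and 11.1 TPM in the U87 mg samples.

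Mechanically, thermally and acid-gated channels followed. PIEZO1, a channel opened by membrane stretch, averaged 23.6 ± 8.65 TPM in U87 mg and 21.8 ± 6.40 TPM in DAOY, and 51.5% and 53.1% of these levels came from protein_coding transcripts. PIEZO2, its relative known from touch receptors, averaged 9.09 ± 2.66 TPM in DAOY and was at 0 TPM in 8 of 9 U87 mg samples. TRPM7, a cation channel fused to a kinase, led the TRP genes with 34.3 and 62.7 TPM, followed by TRPC1 (14.8 and 7.78 TPM) and the cold receptor TRPM8 (8.71 and 4.24 TPM). ASIC3 (1.62 and 4.78 TPM) and ASIC1 (0.885 and 3.14 TPM) are proton-gated. Among sodium-proton exchangers the Golgi exchanger SLC9A7 averaged 18.1 and 4.03 TPM. The name patterns also took in 3 genes that are no channel or pump. These were TRPC4AP (87.6 and 26.8 TPM) and the scaffolds SLC9A3R1 (18.4 and 64.3 TPM) and SLC9A3R2 (1.98 and 30.8 TPM).

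Membership depended on where the threshold stood. Just inside were SCN4B (1.06 TPM in DAOY) and TRPC4 (1.09 TPM in U87 mg), and just outside were KCNJ10 (0.956 TPM in DAOY), KCNK9 (0.934 TPM) and SCN3A (0.871 TPM). Summed over protein_coding transcripts alone, 79 of the 88 members reached 1 TPM, and those that did not included KCNAB3, KCNT2, SCN1A, SCN4B, TRPC4, TRPV1, TRPV3 and TRPV6. In the line of its higher level a member drew a median of 91.9% of its TPM from protein_coding transcripts. ATP1B3 drew 60.7% in U87 mg and 61.0% in DAOY from them.

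The lines were compared at 0 h over the 52 members that had passed in both lines, because members that passed in 1 line had been chosen on that difference. Genes were called by edgeR's quasi-likelihood test at an FDR (Benjamini-Hochberg adjusted p) below 0.05 together with a change of 2-fold or more, 1 on the log2 scale. Of the 52 members 27 were called, 12 higher in DAOY and 15 higher in U87 mg, and 35 passed the FDR alone. Over all 16482 genes tested 41.2% were called, 23.4% higher and 17.8% lower in DAOY, and 60.7% passed the FDR, beside 51.9% and 67.3% of the members. The median log2 difference, DAOY over U87 mg, was -0.36 over the 52 members and 0.05 over all genes. The 52 leave out 31 members that passed only in DAOY but just 5 that passed only in U87 mg. Genes at large had no such filter. The medians and shares are therefore not drawn alike, and no lean of the members toward either line can be read from them.

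KCNJ15 differed most. Its TPM at 0 h was 211, 199 and 172 in DAOY and 5.40, 5.49 and 5.76 in U87 mg, a log2 difference of 5.07 (SE 0.22, adjusted p = 8.62e-12). CACNA1A lay at the other end, with 1.38, 5.26 and 2.66 TPM in DAOY against 59.3, 69.2 and 71.1 TPM in U87 mg, a log2 difference of -3.91 (SE 0.32, adjusted p = 1.44e-08). In neither gene did the lines overlap. Also higher in DAOY were SLC9A3R2 (3.45 on the log2 scale), ATP1B1 (2.86), LRRC8D (2.74), LRRC8B (2.53), KCNK6 (2.07), CACNA2D3 (2.03), KCNAB2 (1.80), ASIC3 (1.64), KCNN3 (1.46), SLC9A3R1 (1.41) and CLCN5 (1.39). Called lower in DAOY were KCNN4 (-2.85), KCNS3 (-2.74), SLC9A8 (-2.53), SLC9A7 (-2.21), KCNC4 (-2.08), TRPC4AP (-1.87), CLCN3 (-1.78), CACNA1C (-1.70), TRPM8 (-1.62), SLC9A5 (-1.48), CACNB1 (-1.28), KCNQ3 (-1.27), PIEZO1 (-1.25) and KCNIP4 (-1.18). Of the 5 sodium-proton exchangers tested, 3 were thus called lower in DAOY (SLC9A5, SLC9A7 and SLC9A8) and 0 higher. Of the called members ASIC3, CACNA1A, CACNA2D3, KCNC4 and TRPM8 drew under 50% of their TPM from protein_coding transcripts in the line of their higher level. Over protein_coding transcripts alone 26 members were called. For PIEZO1 the call rests on counts, which are not scaled to transcript length. Its level ran from 10.4 to 36.1 TPM in U87 mg at 0 h, where PIEZO2 was at 0 TPM. Over the 9 samples of each line PIEZO1 averaged 23.6 TPM in U87 mg and 21.8 TPM in DAOY.

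A smaller difference that passed the FDR alone was seen in 8 members. Of these TRPM7 (0.77) and KCNG1 (0.87) were higher in DAOY, and TRPC1 (-0.99), CLCN4 (-0.65), LRRC8E (-0.55) and ATP1B3 (-0.47) were lower. LRRC8 subunits therefore did not move as 1 group, since LRRC8B and LRRC8D were higher, LRRC8E was lower, and LRRC8A (0.22, SE 0.20) and LRRC8C (0.40, SE 0.20) did not pass. KCNMA1 (-0.31, SE 0.17), CACNA2D1 (-0.11, SE 0.20) and KCNE4 (0.04, SE 0.31) did not pass either. The count of 27 lay between 25 and 28 under every other normalisation, filter, tool and left-out replicate run with both criteria.

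**Figure D3:**
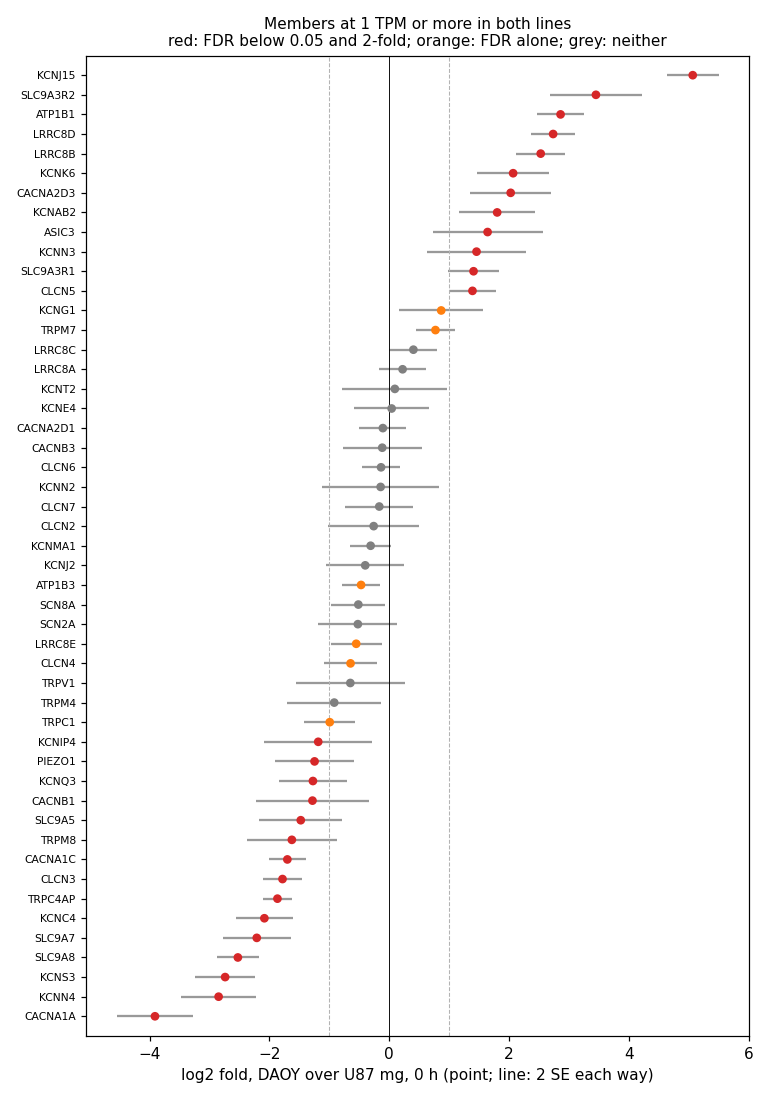
Log2 difference between DAOY and U87 mg at 0 h (x axis; points with a line of 2 SE each way) for members at 1 TPM or more in both lines, without a few that are not reported here, in order of the difference. Red points passed the FDR and the 2-fold criterion (27), orange points the FDR alone and grey points neither.

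The question of which genes changed under the field was asked within each line against its 0 h samples, which the 2 h and 8 h comparisons share. In DAOY at 8 h, 83 members could be tested and 3 were called, KCNE4 and KCNJ2 as higher and SLC9A8 as lower, and KCNJ15 was lower at the FDR alone. The share called was 3.61%, against 3.13% of all 15396 genes tested (1.19% higher, 1.94% lower), and 4.82% passed the FDR, against 5.85% (2.34% higher, 3.50% lower). The members were therefore called about as often as genes at large. Their median log2 fold change was 0.03, against -0.01 over all genes, and 23 members had an unadjusted p below 0.05 (27.7%, against 22.7% of all genes).

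KCNE4 (chr2:223051814-223198399, plus strand, GRCh38) stood at 4.505, 4.38 and 6.22 TPM at 0 h in DAOY, at 4.26, 5.79 and 4.52 TPM at 2 h and at 8.05, 11.6 and 11.6 TPM at 8 h. All 8 h samples lay above all others of the line. The log2 fold change at 8 h was 1.33 (SE 0.30, adjusted p = 0.0327). KCNE4 has 2 transcripts in the table, and 34.8% of its DAOY level came from one without a coding frame. In U87 mg its 8 h values of 4.69, 8.14 and 5.68 TPM overlapped the 0 h values of 4.60, 4.63 and 6.19 TPM, and the log2 fold change was 0.64 (SE 0.29, adjusted p = 0.306).

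KCNJ2 (chr17:70168673-70180048, plus strand), the classical inward rectifier that holds cells near the potassium potential, stood at 0.870, 1.60 and 1.60 TPM at 0 h in DAOY. It stood at 1.55, 0.985 and 1.49 TPM at 2 h and at 2.53, 3.28 and 3.15 TPM at 8 h, again without overlap. The log2 fold change was 1.22 (SE 0.28, adjusted p = 0.0342), from 30.1 to 63.1 estimated counts a library at 0 h and 93.2 to 107 at 8 h. Its neighbour KCNJ16, which starts upstream on the same strand, was not called.

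SLC9A8 (chr20:49812713-49892242, plus strand), an exchanger of the Golgi and endosomes, fell in DAOY from 1.93, 2.87 and 2.85 TPM at 0 h, and 2.73, 3.23 and 2.08 TPM at 2 h, to 1.10, 1.34 and 1.06 TPM at 8 h. The groups did not overlap, and the log2 fold change was -1.25 (SE 0.27, adjusted p = 0.0264), from 73 to 127 estimated counts a library at 0 h and 23.0 to 46 at 8 h. In U87 mg all 3 values at 8 h (9.28, 10.6 and 9.30 TPM) were also under those at 0 h (10.7, 13.6 and 13.6 TPM), and the log2 fold change was -0.30 (SE 0.13, adjusted p = 0.265).

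KCNJ15 (chr21:38155549-38307357, plus strand) stood at 211, 199 and 172 TPM at 0 h, at 163, 177 and 180 TPM at 2 h and at 173, 123 and 142 TPM at 8 h in DAOY, and the TPM values of 0 h and 8 h overlapped by 1 sample. Its log2 fold change at 8 h was -0.62 (SE 0.15, adjusted p = 0.0379). Of its 16 transcripts ENST00000328656, a protein_coding one, had the smallest p of all member transcripts at 8 h in DAOY, with a log2 fold change of -1.17 (SE 0.17, adjusted p = 0.0998).

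**Figure D4:**
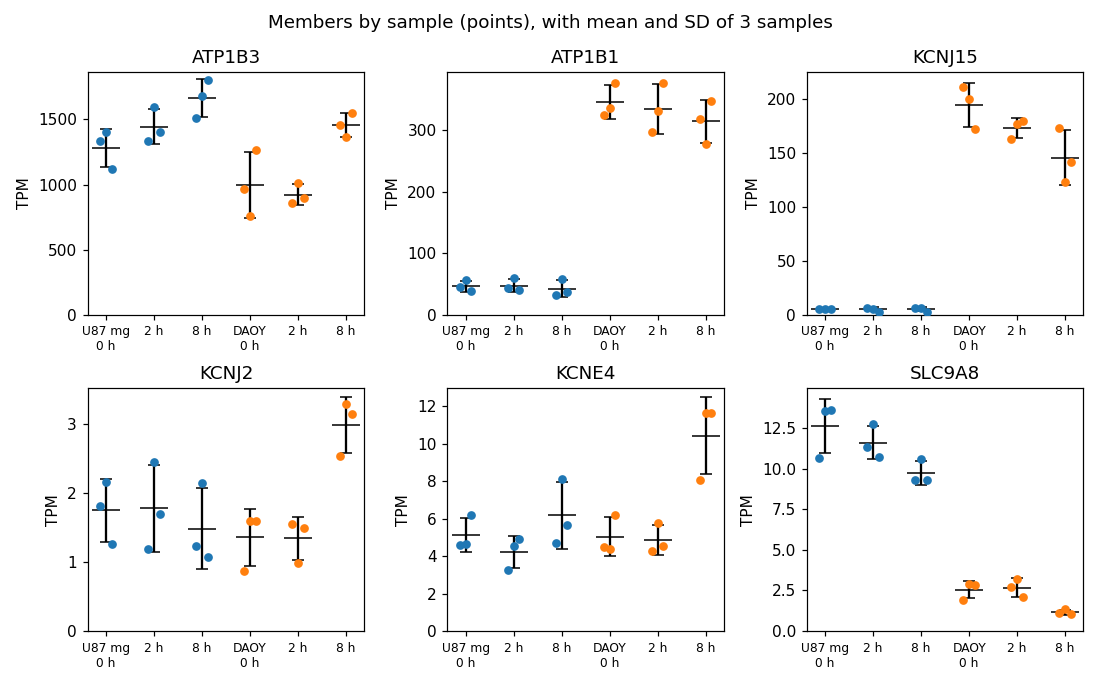
TPM of ATP1B3, ATP1B1, KCNJ15, KCNJ2, KCNE4 and SLC9A8 in each of the 18 samples (points), with the mean (long dash) and SD of each group of 3, U87 mg in blue and DAOY in orange. Within DAOY, KCNJ2 and KCNE4 are highest, and SLC9A8 lowest, in the 3 samples at 8 h.

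These calls were close to the threshold. DESeq2 called 6 members at both criteria (KCNE4, KCNJ2, SCN2A, SLC9A8, TRPM8 and TRPV3), whereas limma on log2(TPM + 1) called 0. Leaving out 1 library left 0 to 2 calls: 0 without DAOY 0 h replicate 1 or 2 or DAOY 8 h replicate 1 or 2, 1 (KCNE4) without DAOY 8 h replicate 0, and 2 (SLC9A8 and TRPM8) without DAOY 0 h replicate 0. The direction of the 4 genes did not turn in any fit. The DAOY 8 h libraries also differed in general measures. Mitochondrial genes took 5.97 to 8.44% of their counts, against 2.92 to 5.70% at 0 h, and retained-intron transcripts 3.21 to 3.81% against 3.02 to 3.29%, with both highest in DAOY 8 h replicate 1. Their part in the result was not tested.

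Further members with low unadjusted p in DAOY at 8 h did not pass. ATP1B3 stood at 965, 757 and 1267 TPM at 0 h and 1458, 1361 and 1551 TPM at 8 h, without overlap, and gave a log2 fold change of 0.62 (SE 0.17, adjusted p = 0.0556). Over protein_coding transcripts alone it gave 0.77 (adjusted p = 0.0352). SCN2A gave -1.20 (adjusted p = 0.0722), TRPV3 1.64 (0.0869), LRRC8B -0.55 (0.0929), TRPM8 1.28 (0.107), CACNG7 -1.05 (0.107) and KCNN4 0.79 (0.120), all as log2 fold change with the adjusted p of edgeR. For TRPV3 the 8 h values were 1.45, 1.08 and 4.66 TPM, and for TRPM8 12.8, 5.70 and 4.59 TPM, so 1 sample stood apart in each. Of 83 members 9 (10.8%) had every 8 h sample above every 0 h sample in TPM and 5 (6.02%) below, against 8.86% and 15.0% of all genes.

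**Figure D5:**
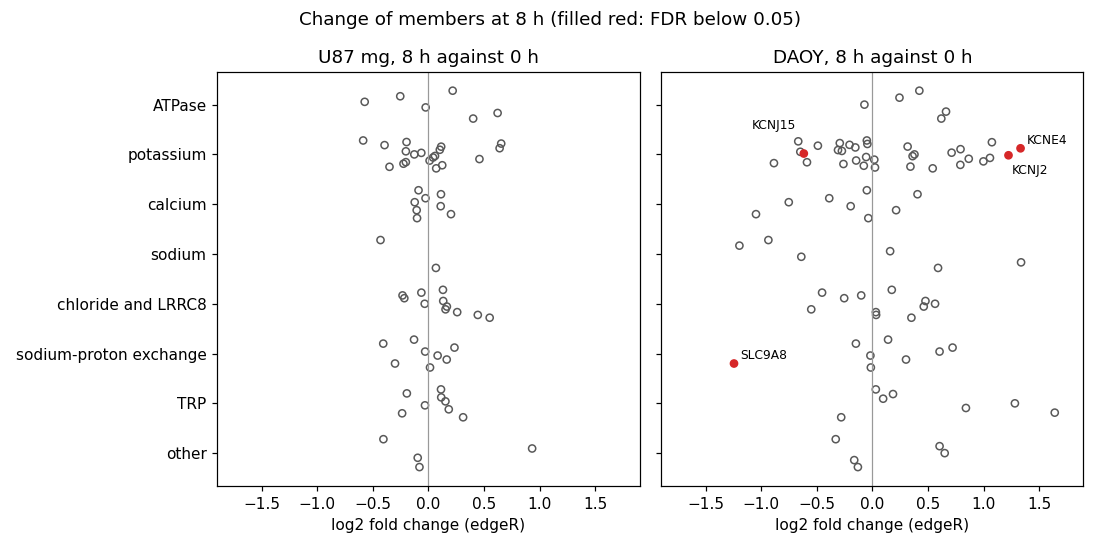
Log2 fold change at 8 h against 0 h (x axis) for each member tested, by family (rows), in U87 mg (left, 66 members) and DAOY (right, 83 members). Filled red points passed an FDR below 0.05: KCNE4, KCNJ2, KCNJ15 and SLC9A8 in DAOY, and no member in U87 mg.

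In U87 mg at 8 h none of the 66 members tested passed, while 0.638% of all 14106 genes were called and 1.72% passed the FDR. By an unadjusted p below 0.05 there were 7 members (10.6%, against 15.9% of all genes), and DESeq2 and limma on log2(TPM + 1) also called 0 at the FDR. All members lay within 1 of 0 on the log2 scale, and 59 of 66 within 0.5. The smallest p belonged to ATP1B3, with 1331, 1400 and 1118 TPM at 0 h and 1509, 1678 and 1803 TPM at 8 h, a log2 fold change of 0.40 (SE 0.13, adjusted p = 0.151). It was the only member tested whose 8 h samples all lay above its 0 h samples in TPM (1.52% of members, against 5.80% of all genes), while 6 lay below (CACNB1, CLCN2, KCNAB1, SCN8A, SLC9A3R1 and SLC9A8; 9.09%, against 10.2%). Then came LRRC8E (0.55), SLC9A8, LRRC8D (0.44) and KCNAB1 (-0.59), with adjusted p from 0.202 to 0.284. The 5 LRRC8 genes all had positive values, from 0.15 to 0.55, of which none passed.

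At 2 h no gene at all passed in either line (0% of 14106 genes in U87 mg and 0% of 15396 in DAOY), so no member could, and DESeq2 and limma called 0 members. In U87 mg 1 of 66 members had an unadjusted p below 0.05 (1.52%, against 8.78% of all genes). This was KCNQ3, a subunit of the M-current, with 4.64, 4.49 and 4.34 TPM at 0 h and 5.48, 5.97 and 6.18 TPM at 2 h, giving a log2 fold change of 0.39 (SE 0.13, adjusted p = 0.495). Without U87 mg 0 h replicate 0 its adjusted p was 0.0453 and that of CACNA1A 0.0373. Among the next smallest p were those of CACNA1A (-0.29), LRRC8C (0.38) and LRRC8B (0.44). The median log2 fold change at 2 h in U87 mg was -0.12 over the members and -0.02 over all genes.

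In DAOY at 2 h the members with an unadjusted p below 0.05 were LRRC8E and KCNN4 (2.41%, against 2.75% of all genes). LRRC8E stood at 5.77, 5.43 and 6.40 TPM at 0 h, 13.1, 7.74 and 13.6 TPM at 2 h and 8.13, 6.001 and 8.13 TPM at 8 h, and its log2 fold change at 2 h was 0.87 (SE 0.22, adjusted p = 0.999). KCNN4 stood at 1.98, 5.12 and 5.58 TPM at 0 h and 7.95, 10.6 and 6.02 TPM at 2 h, and its log2 fold change was 0.92 (SE 0.28, adjusted p = 0.999). In both genes the groups did not overlap. Every 2 h sample lay above every 0 h sample in TPM in 3 of 83 members (3.61%), against 3.59% of all genes. KCNG1 (0.59), CLCN7 (0.59) and SLC9A3R2 (0.71) followed.

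Whether the 8 h change differed between the lines was tested as an interaction over all 18 samples. None of 86 members passed, 2 of all 16482 genes did (0.0121%, at the FDR alone as well as with the fold criterion), and 9 members had an unadjusted p below 0.05 (10.5%, against 8.88% of all genes). SLC9A8 came first, with a difference of -0.93 (DAOY minus U87 mg, log2 scale, SE 0.25, adjusted p = 0.219). DESeq2 passed SLC9A8 at the FDR (-0.91, adjusted p = 0.0458), and limma passed 0 members. KCNJ2 gave 1.37 (SE 0.45, adjusted p = 0.323), TRPM8 1.32 (SE 0.51) and LRRC8B -0.70 (SE 0.28). KCNK2 was also among the 5 smallest p, but it had at most 3 estimated counts in any U87 mg library, so no value is given. By edgeR a different response of the lines was thus not shown for any member, including those called in DAOY alone.

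Single transcripts were tested as well. Of 163 member transcripts tested in DAOY and 154 in U87 mg, 0 passed the FDR in any of the 4 time comparisons, while 13 had an unadjusted p below 0.05 in DAOY at 8 h and 4 in U87 mg at 8 h. The shares over all transcripts are not given here, so these counts cannot be set against transcripts at large.

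Other ion transport genes were followed as 11 lists with 170 names, of which 113 were tested in DAOY and 102 in U87 mg. At 2 h in both lines and at 8 h in U87 mg, 0 passed the FDR by edgeR. In U87 mg an unadjusted p below 0.05 was seen in 3 of 102 list genes at 2 h and 12 of 102 at 8 h, against 8.78% and 15.9% of all genes. In DAOY at 2 h it was seen in 2 of 113, against 2.75% of all genes. In DAOY at 8 h 5 passed the FDR, 3 higher and 2 lower, and 1 of them was called with the fold criterion. These are 4.42% and 0.885% of the list genes tested, under the 5.85% and 3.13% of all genes, so the lists were not called more often than genes at large. The 1 gene called was SLC24A1, a potassium-dependent sodium-calcium exchanger, which fell from a mean of 3.60 to 1.23 TPM (log2 fold change -2.12, SE 0.33, adjusted p = 0.0106) and was 1 of 7 tested calcium pumps and exchangers of the plasma membrane, where SLC8A3 gave 1.01 (adjusted p = 0.220). Of 14 cation-chloride cotransporters and their kinases, the kinase OXSR1 was higher (0.80, adjusted p = 0.0331) and its relative STK39 lower (-0.69, adjusted p = 0.0438). Of 6 connexins and pannexins GJC1, a gap junction protein, was higher (0.95, adjusted p = 0.0182), and GJB2 gave 1.33 (adjusted p = 0.0534). Of 14 ENaC, polycystin, TPC, TRPA and proton channel genes MCOLN2, a lysosomal cation channel, was higher (0.80, adjusted p = 0.0485), and PKD1 gave 1.07 (adjusted p = 0.0509).

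In DAOY at 8 h 0 passed among the calcium store genes (14 tested; ORAI3 -1.14, adjusted p = 0.127, and RYR3 0.62), the mitochondrial calcium uniporter (7 tested; MCUR1 -0.52, MICU3 -1.06) and the bicarbonate transporters and carbonic anhydrases (9 tested; SLC4A4 -1.003, SLC4A7 0.44). In the last list the carbonic anhydrases CA9 and CA12, which sit at the cell surface, stood apart in 1 library. CA9, too low for the test in DAOY, was at 2.01, 0.363 and 0 TPM at 0 h, and at 8 h at 80.4 TPM in replicate 2 and 0 TPM in the other two. CA12 was at 8.02, 4.28 and 9.79 TPM at 0 h and 7.91, 3.96 and 30.2 TPM at 8 h, with the high value in the same library (log2 fold change 0.99, SE 0.58, adjusted p = 0.350). Likewise 0 passed among other chloride channels (15 tested; ANO10 -0.54, TMEM206 0.48), V-type proton ATPase subunits (20 tested; ATP6V1C1 0.35, ATP6V1B2 0.21), purinergic receptors (4 tested; P2RY11 0.65) and Na,K-ATPase modulators (3 tested; FXYD5 0.01, NKAIN4 -0.60). Over all 11 lists 19 of the 113 genes tested had an unadjusted p below 0.05 in that comparison, where 22.7% of all genes did.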

How the data were processed

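RNA-SEQ was analysed from 18 samples, 3 for each of U87 mg and DAOY at 0, 2 and 8 h. The authors trimmed reads with the FastQC Toolkit 2.0.0, assigned them with Kallisto 0.43.0 in single-end mode to GENCODE 24 transcripts (GRCh38.p5), and deposited, for each transcript and sample, the estimated count beside the TPM. The deposited table also holds p-values, q-values and log2 fold changes of the authors' own Sleuth 0.28.1 comparisons in R 3.2.1, which were not used. Whether strand was used in counting is not given in the sources used here, so genes with an antisense partner are uncertain, as are near-identical paralogs.

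Values were summed by gene name, estimated counts were rounded, genes with low counts were dropped by filterByExpr, TMM factors scaled the libraries, and each gene was tested with glmQLFit and glmQLFTest in edgeR 4.0.16 (R 4.3.3), over the 9 samples of a line or all 18 for comparisons between lines. P-values were adjusted by Benjamini-Hochberg over all genes tested. DESeq2 1.42.0 and limma 3.58.1 served as alternatives, beside other filters, scalings, samples and pseudocounts of 1 and 0.1. Scripts used Python 3.11.15, pandas 2.3.3, numpy 2.4.6 and matplotlib 3.10.9, and the fits were tested on simulated data. Coordinates are from GENCODE 29 on GRCh38. The name KCNA1 took in transcripts of more than 1 GENCODE 29 gene. Samples were grouped by their labels, which call the 0 h samples controls. Labels do not say that replicates came from separate cultures, although the study's methods call them biological replicates. No replicates were duplicates of each other.

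The members, the gene lists, the tests and the rule for named genes were chosen with earlier results of these data known. Named were members past the FDR, the up to 3 highest of each class, the 5 with the smallest p in each time comparison and in the interaction, the 3 on either side of the 1 TPM threshold, and up to 2 genes of each other ion transport list. Members named outside this rule were chosen after their values were seen. Some members that the rule names are not reported here, although they stay in the counts, sums and tests.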

Additional observations from a re-analysis of the deposited data

Results flagged for a closer look

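SCN3A, a voltage-gated sodium channel pore, was not among the members because its mean in DAOY was 0.871 TPM, just under the threshold, yet it passed the FDR in DAOY at 8 h, where its log2 fold change was -1.66 (SE 0.42, edgeR's adjusted p = 0.0467). Of 26 tested names that match the patterns but are no member, it alone passed there, against 5.85% of all genes. Its estimated counts were 31, 53.0 and 16.4 at 0 h, 20, 26.8 and 14.6 at 2 h and 9.87, 10.2 and 9 at 8 h, without overlap between 0 h and 8 h. In TPM, 0.648, 1.01 and 1.78 at 0 h overlapped 0.173, 0.433 and 0.786 at 8 h. The adjusted p ranged from 0.0259 with all 18 samples in one fit to 0.392 with limma on log2(TPM + 1), and from 0.0394 to 0.154 with 1 library left out, below 0.05 only without DAOY 0 h replicate 2.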

How the results depend on the processing

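The number of members called in DAOY at 8 h, 3 in the main analysis, moved with most choices. It was 6 with DESeq2 and 6 with all 18 samples in one fit, 5 with no filter on low counts, 1 with the replicate number as a block, and 0 with limma at either pseudocount, with only the 6 samples compared, with protein_coding transcripts alone and with single transcripts, and it ranged from 0 to 2 with 1 replicate left out. It was 3 with RLE factors and when every sample had to hold at least 10 counts, and 4 at the FDR alone. For SLC9A8, KCNE4, KCNJ2 and KCNJ15 the adjusted p over the alternatives ranged from 0.000607 to 0.157. Deviations of same-numbered samples from their group means correlated at -0.175 to 0.214 (U87 mg) and -0.20 to 0.315 (DAOY) between 0 h and the later times, but at 0.146 to 0.263 (U87 mg) and 0.065 to 0.437 (DAOY) between 2 h and 8 h. As not every pair with 0 h passed 0.1, the numbers were not taken to pair the samples compared, and the block changed no other count of members called.

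In the other time comparisons and the interaction 0 members were called in every alternative run with both criteria. The count between lines was 35 at the FDR alone, and otherwise 25 to 28. The number of members was 114 at 0.5 TPM, 66 at 2 TPM and 86 to 90 with 1 replicate left out. For the single members named in the time comparisons and the interaction, 360 alternative values kept direction and side of the threshold, 41 lost the FDR, 9 gained it and none turned direction. Most of these members had not passed, and all 41 losses fell on SLC9A8, KCNE4, KCNJ2 and KCNJ15 in DAOY at 8 h. KCNE4 kept the FDR in 6 of 10 alternatives and each of the others in 5 of 10. With 1 replicate left out, SLC9A8 and KCNE4 each kept it in 1 of 6 fits, and KCNJ2 and KCNJ15 in 0 of 6. Scaling by RLE moved the median of all genes by less than 0.1 on the log2 scale.

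With 3 samples a group, the median SE of a member's log2 fold change was 0.26 in U87 mg and 0.32 in DAOY at 8 h, so changes near this size could not be told from 0. Larger changes could fail to pass as well, such as 0.40 for ATP1B3 in U87 mg and 1.64 for TRPV3 in DAOY at 8 h. TPM values of low genes can rest on few counts of a short transcript, as in SCN1A.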
